A study of Mus musculus with 1 sample.

Results

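The genes described here are 10 members of the Hippo signalling pathway: the coactivators Yap1 and Wwtr1, the transcription factors Tead1, Tead2, Tead3 and Tead4, the kinases Lats1 and Lats2, and the upstream proteins Nf2 and Amotl2. They were chosen by name, and every probe set whose only gene symbol was one of these 10 was taken. This gave 24 of 34945 named probe sets, and all 10 genes, of 18193 in all, were measured. Total RNA of ovarian surface epithelium, the mesothelium-like cell sheet around the ovary, was measured on 1 Affymetrix mouse expression array. The mice were wild type and 3 months old. The design of the series has 3 genotypes. Only the wild-type array was analysed here, so the account is one of presence and level in normal cells, with no comparison between genotypes, no replicate error and no test.

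The Hippo pathway restrains tissue growth in response to cell density, cell shape and tension. The kinases STK3 and STK4 with their scaffold SAV1 activate LATS1 and LATS2, which, bound to MOB1 proteins, phosphorylate YAP1 and TAZ, the product of Wwtr1. Phosphorylated YAP1 and TAZ are held in the cytoplasm or degraded, and otherwise enter the nucleus and switch on genes together with TEAD factors. In mesothelium, the tissue type to which the ovarian surface belongs, NF2 and LATS2 are known as tumour suppressors lost in human mesothelioma. The array measures transcripts and not phosphorylation, the step at which the pathway mainly acts.

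TEAD factors bind short DNA elements, among them MCAT, that contain the letters CATTCC, or GGAATG on the other strand. Below, the element means these letters alone. The RefSeq promoter table of build GRCm38.p6 held 8 of the 10 genes, with Tead1 and Tead4 not used here. The 250 bases before the start were searched for these letters on both strands, and matches on opposite strands cannot overlap. The element was found for 4 of these 8 genes, Yap1, Wwtr1, Tead3 and Amotl2, counting any window of a gene. The share was 14.4% of all 27025 genes with a promoter window, and 13.4% of the 14368 of them named on the array. Among pathway lists described further on, it was found for 2 of 7 core genes, 5 of 14 upstream regulators and 3 of 6 nuclear partners. It was thus not particular to the members, and no test was made. The first windows of Yap1, Wwtr1, Tead3 and Amotl2 are shown because they hold the element, so that a reader can see where it lies. These genes encode the coactivators, a TEAD factor and a known TEAD target. The windows of Tead2, Lats1, Lats2 and Nf2 held no match and are not shown. Ccn1, the first gene of the target list described further on, is shown for comparison. Of the 13 targets with a window 4 held the element, so Ccn1 does not stand for the list. Each is written 5′ to 3′ on the strand of its gene, and capitals mark the element.
Yap1, chr9:8004597-8004846, minus strand: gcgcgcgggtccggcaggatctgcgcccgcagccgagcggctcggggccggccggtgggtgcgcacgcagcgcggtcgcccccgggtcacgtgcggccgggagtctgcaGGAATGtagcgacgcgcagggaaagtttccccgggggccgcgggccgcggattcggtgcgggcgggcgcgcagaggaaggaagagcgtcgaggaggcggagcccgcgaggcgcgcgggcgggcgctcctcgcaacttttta
Wwtr1, chr3:57575911-57576160, minus strand: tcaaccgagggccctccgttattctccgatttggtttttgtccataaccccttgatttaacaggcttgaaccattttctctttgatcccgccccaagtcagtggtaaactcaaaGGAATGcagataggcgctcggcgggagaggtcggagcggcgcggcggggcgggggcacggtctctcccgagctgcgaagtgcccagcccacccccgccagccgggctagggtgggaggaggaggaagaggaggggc
Tead3, chr17:28350806-28351055, minus strand: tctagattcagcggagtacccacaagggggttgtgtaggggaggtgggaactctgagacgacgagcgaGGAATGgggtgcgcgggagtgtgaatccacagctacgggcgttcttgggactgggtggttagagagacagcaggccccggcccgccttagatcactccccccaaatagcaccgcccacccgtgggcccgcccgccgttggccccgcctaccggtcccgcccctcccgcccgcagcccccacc
Amotl2, chr9:102717554-102717803, plus strand: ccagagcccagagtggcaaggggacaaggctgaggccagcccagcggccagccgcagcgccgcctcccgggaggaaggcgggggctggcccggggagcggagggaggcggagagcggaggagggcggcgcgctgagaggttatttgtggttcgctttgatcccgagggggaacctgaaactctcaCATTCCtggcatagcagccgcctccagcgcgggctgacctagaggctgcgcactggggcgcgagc
Ccn1, chr3:145649986-145650235, minus strand: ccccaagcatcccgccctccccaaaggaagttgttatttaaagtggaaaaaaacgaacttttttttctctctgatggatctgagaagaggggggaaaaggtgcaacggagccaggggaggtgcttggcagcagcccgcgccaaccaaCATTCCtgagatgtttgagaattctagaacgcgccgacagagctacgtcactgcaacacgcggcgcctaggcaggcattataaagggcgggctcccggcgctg
The first base of the element lay 141 bases before the start of Yap1, 136 before that of Wwtr1, 182 before that of Tead3, 65 before that of Amotl2 and 103 before that of Ccn1. A second Tead3 window, for another start, held CATTCC at 123 and 114 bases before that start. A match describes these letters only and does not show that a TEAD factor was bound there.

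Of the 10 genes 9 were above background, all except Tead4. Above background means that the brightest probe set of a gene was over an intensity of 46.5. This limit was the 95th percentile of 126 background probe sets, for keratin-associated proteins and for smell, pheromone and bitter taste receptors, whose transcripts belong to other organs. Over all named genes 62.8% passed this limit. The share depends on how many probe sets a gene has, at 47.3% of genes with 1 probe set, 71.8% with 2, 82.9% with 3 and 90.2% with 4 or more. Weighted to the numbers of probe sets that the 10 genes have, it was 69.2%. The median level of the 10 genes was 10.002 on the log2 intensity scale, and that of all named genes was 7.06. These medians are not weighted for numbers of probe sets, with a median of 2 per gene for the 10 genes and 1 for all. At the level of single probe sets, 16 of the 24 exceeded the limit, against 55.1% of all named probe sets. Because affinity varies from one probe set to the next, the levels below are read against background and genes are not ranked. In the identifiers, the letter a marks probes shared by transcripts of the same gene, and s and x mark probes that may bind other genes.

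**Figure D1:**
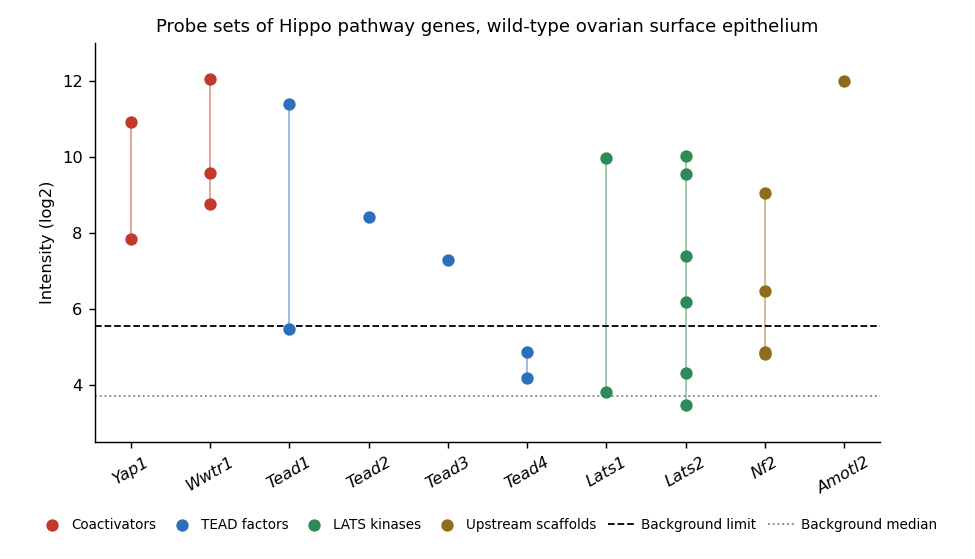
Intensity (log2, vertical axis) of each of the 24 probe sets (points) of the 10 genes, coloured by role; a line joins the probe sets of a gene, and the dashed and dotted lines mark the background limit of 46.5 and the background median of 13. All probe sets of Yap1, Wwtr1, Tead2, Tead3 and Amotl2 lie above the limit, both of Tead4 lie below it, and Tead1, Lats1, Lats2 and Nf2 have probe sets on both sides.

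Both coactivators were above background on every probe set. Yap1, the coactivator restrained by LATS kinases, had intensities of 1946 on probe set 1448363_at and 229 on 1416487_a_at. Wwtr1, which encodes its paralog TAZ, had 4247 on 1417818_at, 761 on 1417817_a_at and 434 on 1437155_a_at. None of the 126 background probe sets was as bright as any of these 5. On the log2 scale the brightest probe set stood 5.39 above the limit for Yap1 and 6.51 above it for Wwtr1. The probe sets of Yap1 differed 8.50-fold between the brightest and the dimmest, and those of Wwtr1 9.79-fold. This is a spread between probe sets, not an error of the level.

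Of the 4 TEAD factors, through which both coactivators reach DNA, 3 were above background. Over all named genes 47.3% of those with 1 probe set and 71.8% with 2 passed. The count of 3 is therefore not read as particular to this family. Tead1 had 2695 on 1429556_at and 44 on 1423434_at, so that 1 probe set stood 5.86 above the limit on the log2 scale and the other just under it. The 61.3-fold gap between the Tead1 probe sets is an SD of 4.20 on the log2 scale. The median SD over the 9010 genes with several probe sets was 1.39, but these include dim genes such as Tead4, at 0.49. Such a gap was not particular to Tead1, as the SD for Lats1 was 4.36. Tead2, a TEAD factor known from early mouse development, had 343 on its only probe set. Tead3, known in human from placenta, had 156 on its only probe set. Neither value was reached by any background probe set, and the 2 levels stood 2.88 and 1.75 above the limit on the log2 scale.

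Tead4, the TEAD factor known for its role in the mouse trophectoderm, was the member not above background. Its probe sets had intensities of 29 on 1460683_at and 18 on 1426337_a_at, and 11 and 34 of the 126 background probe sets were as bright or brighter. The brighter one lay at -0.68 relative to the limit on the log2 scale. It passed the limit set at the 90th percentile of background, where its value was 0.19. A low value on an array bounds the signal of these probes and does not show that the transcript was absent.

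Both LATS kinases, which phosphorylate YAP1 and TAZ, were above background, on part of their probe sets. Lats1 had 1007 on 1435739_at and 14 on 1427679_at. The dim one was matched or exceeded by 60 of the 126 background probe sets, and the bright one by none. Lats2, also a transcriptional target of YAP1 known from human and mouse cells, had 6 probe sets. Its values were 1044 on 1439441_x_at, 748 on 1437101_at, 169 on 1419678_at, 72 on 1425420_s_at, 20 on 1426156_at and 11 on 1419679_at. Of these 4 exceeded the limit, and 4 background probe sets were as bright as the one at 72. The brightest carries the mark x. The next, at 748, has no such mark and stood 4.01 above the limit on the log2 scale. The span from brightest to dimmest was 71.9-fold for Lats1 and 94.9-fold for Lats2.

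Upstream of the kinases, Nf2 and Amotl2 were both above background. Nf2 encodes merlin, a membrane-linked tumour suppressor that brings LATS kinases to the cell cortex. It had 529 on 1421820_a_at, 89 on 1450382_at, 29 on 1451829_a_at and 28 on 1427708_a_at. The first 2 exceeded the limit, by 3.51 and 0.94 on the log2 scale, and 1 background probe set was as bright as the one at 89. Amotl2, an angiomotin protein of cell junctions that binds YAP1 and is itself a known target of it, had 4065 on its only probe set, 6.45 above the limit on the log2 scale. That probe set, as well as the brightest of Nf2, carries the mark a.

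For 5 of the 10 genes every probe set was above the limit, as for 39.7% of all named genes. Among the 7 members with several probe sets this held for Yap1 and Wwtr1, against 32.1% of all genes with 2 or more. Tead1, Lats1, Lats2 and Nf2 had probe sets on both sides of it. Such a split is common here, at 46.7% of the 9010 genes with several probe sets. For these 4 genes the level rests on which probe set is taken, and with the mean of the log2 values they were still above the limit, by 2.89 for Tead1, 1.35 for Lats1, 1.28 for Lats2 and 0.76 for Nf2.

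**Figure D2:**
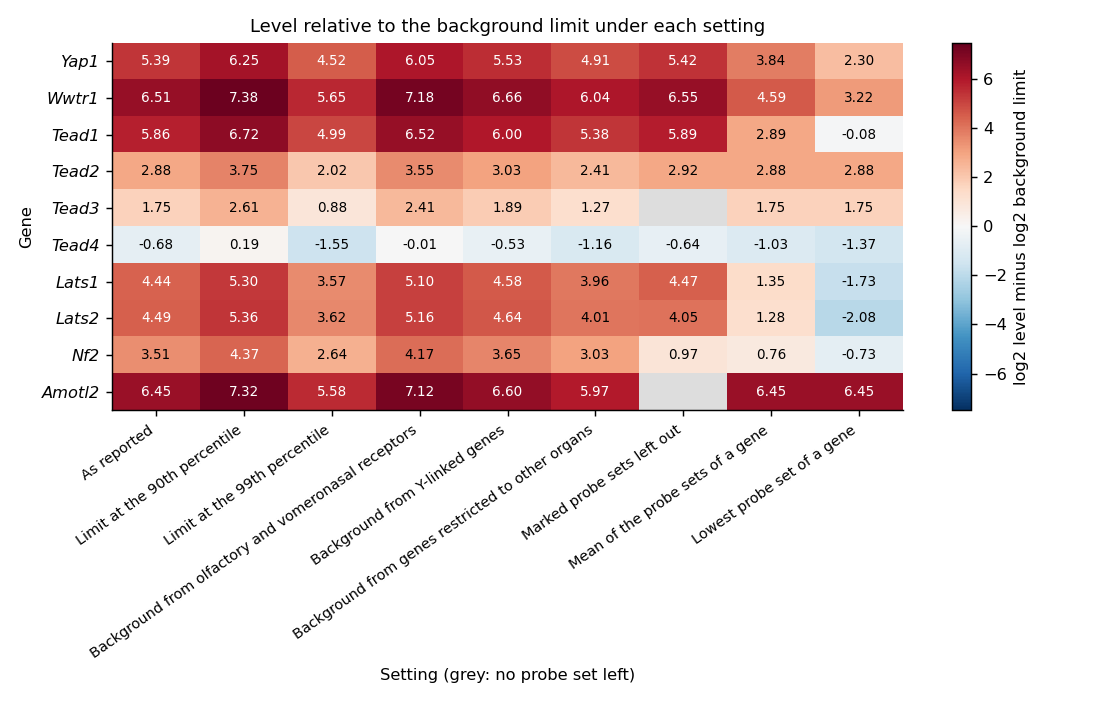
Level of each of the 10 genes (rows) relative to the background limit (colour and printed value, log2 level minus log2 limit) under the reported setting and 8 alternatives (columns); grey cells have no probe set left. Yap1, Wwtr1 and Tead2 are above 0 under all 8 alternatives and Tead3 and Amotl2 under the 7 that give them a value, while Tead4 is above 0 under 1, and Tead1, Lats1, Lats2 and Nf2 fall below 0 with their lowest probe set.

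The other kinases and scaffolds of the core were all above background. Of 9 genes listed 8 were measured and 8 exceeded the limit, with a median of 9.92 on the log2 scale. Among all named genes the share was 62.8%, or 82.9% when weighted to the numbers of probe sets of these 8, so the count lay near that of genes in general. Stk4, the MST1 kinase that activates LATS kinases, had 3 probe sets from 52 to 1401. Its paralog Stk3 had no single-gene probe set and was not analysed here. Sav1, the scaffold that joins these kinases to LATS, had 151 and 828. Of the LATS coactivators, Mob1a had 3 probe sets from 53 to 1368, and Mob1b had 547 and 20. Among kinases able to act in place of or upstream of STK4, Map4k4 had 5 probe sets from 11 to 2010. Taok1 reached 1133, with 4 of 7 probe sets over the limit. Taok3 reached 247, with 3 of 4 over it, and Taok2 reached 115, with 1 of 3.

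Of 16 upstream regulators 14 were above background, with a median of 10.16 on the log2 scale. The share of all named genes, weighted to the same numbers of probe sets, was 71.8%. The angiomotins Amot and Amotl1, paralogs of Amotl2, reached 446 and 1593, with 1 of 3 and 2 of 3 probe sets over the limit. Wwc1, which encodes KIBRA, a partner of merlin, reached 413, with 2 of 4 probe sets over the limit. Its paralog Wwc2 reached 1638, with 4 of 5. Frmd6, a junction protein related to a Drosophila Hippo regulator, had 809. The 2 genes below the limit were the protocadherins Fat4 and Dchs1, which bind each other across cell contacts. Fat4 had 35 and 24, and Dchs1, named after its value was seen, had 41. Both passed when the background was that of olfactory and vomeronasal receptors, and also at the 90th percentile limit of 25.5. Under each of these settings 16 of 16 upstream regulators were above the limit.

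Genes that act on YAP1, TAZ and TEADs in the nucleus or in their turnover were above background in 9 of 10 cases, with a median of 10.39 on the log2 scale. The share of all named genes, weighted in the same way, was 75.9%. The vestigial-like proteins bind TEADs through the surface that YAP1 uses. Vgll3 had 3 probe sets from 1801 to 2699, all above the limit. Vgll4, which represses TEAD activity, had 246. Vgll2, known from mouse skeletal muscle, had 53, close to the limit of 46.5, and Vgll1 had 29, below it. Of the 14-3-3 proteins that hold phosphorylated YAP1 in the cytoplasm, Ywhaz had 7 probe sets from 229 to 5035 and Ywhab had 6 from 62 to 8996. Close paralogs of this family may share probes, and some of these probe sets carry the marks s or x.

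Known targets of YAP1 and TAZ, compiled mainly from human cells and without the members Lats2 and Amotl2, were above background in 20 of 21 measured cases, with a median of 9.39 on the log2 scale. For all named genes, weighted to their numbers of probe sets, the share was 70.4%. No test was made, and none of these counts is read as particular to its list. Ccn1 and Ccn2, secreted matricellular proteins used as readouts of the pathway, were both above background. The 4 probe sets of Ccn1 ran from 234 to 5979, and the single one of Ccn2 had 9999. Ankrd1, a nuclear ankyrin repeat protein, had 585 and 518. Axl, a receptor tyrosine kinase, had 3695 on 1 probe set and 13 on the other. Crim1, a transmembrane protein that binds growth factors, had 546 and 211, and F3, tissue factor of blood coagulation, had 603. The gene not above the limit, named after its value was seen, was Foxf2, a forkhead factor, with 23 and 19. Many of these genes also respond to other signals, so their transcripts do not measure the activity of YAP1 or TAZ.

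**Figure D3:**
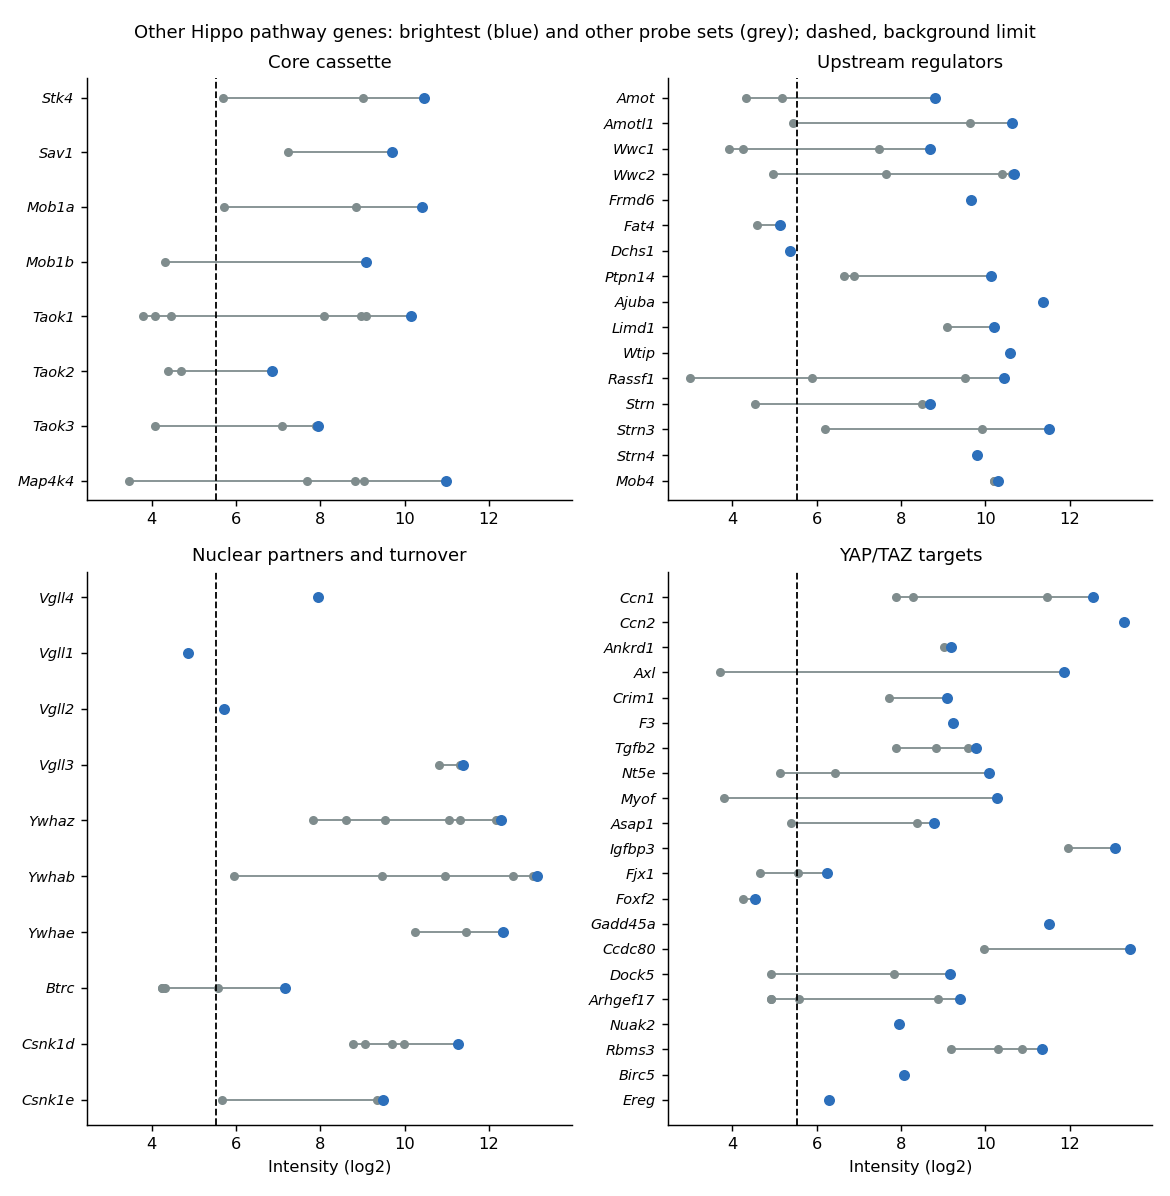
Intensity (log2, horizontal axis) of every probe set of the other pathway genes in 4 lists, with the brightest of each gene in blue, the others in grey and the background limit dashed. The brightest probe set lies above the limit for 8 of 8 core genes, 14 of 16 upstream regulators, 9 of 10 nuclear partners and 20 of 21 targets.

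The sample carried the markers of its label, and those listed for fibroblasts and smooth muscle as well. These lists were chosen with earlier results of these data known, so their counts do not test the label. All 10 surface epithelium and mesothelium markers were above background, with brightest probe sets from 10.65 to 14.35 on the log2 scale. All 6 fibroblast and all 6 smooth muscle markers were also above it, with ranges of 8.26 to 14.87 and 8.99 to 14.50. Of the other lists, 1 of 6 endothelial, 4 of 5 macrophage, 3 of 4 measured granulosa cell and 0 of 5 oocyte markers passed. Over all named genes 62.8% passed, or 47.3% of those with 1 probe set and 71.8% with 2. No test was made, and with so few genes the macrophage and granulosa cell counts are not read as particular to their lists. They include Adgre1 at 47 and Amh at 58, close to the limit of 46.5. In a bulk sample a transcript is not assigned to a cell, and fewer cells of a type cannot be told apart from less RNA per cell. The part of fibroblasts, smooth muscle, macrophages and granulosa cells in the levels of the Hippo genes was not tested.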

How the data were processed

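The deposited table holds 1 linear intensity for each of 45101 probe sets, made by the authors with affy and RMA, per the submitters' processing notes. Software versions, the set of arrays normalized together and the step that gave whole linear numbers were not given in the sources. The intensities ran from 6 to 32341. Rounding to whole numbers moves a value at the limit of 46.5 by 0.015 on the log2 scale.

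Values were converted to log2 here, and names came from the platform annotation of the probe sets: 34945 had 1 gene symbol, 932 had several, 9160 had none and 64 were controls. Only the first kind was used. A gene's level was that of its brightest probe set, and the limit was the 95th percentile of 126 background probe sets for 112 genes. The limit takes no account of probe affinity, and 7 of the 126 exceed it by construction.

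The members and lists were chosen with earlier results of these data known. The named genes were all 10 members, all measured core genes and the first 6 measured of each other list. The precision of a level cannot be had from 1 array, no test was made, and no genes could be named for a like pattern across samples. Alternatives changed the percentile, the background genes, the probe sets kept and the summary per gene. Promoter sequences are from RefSeq. The software was NumPy 2.4.6 and pandas 2.3.3 under Python 3.11.15, with figures by matplotlib 3.10.9.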

Additional observations from a re-analysis of the deposited data

Results flagged for a closer look

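One further probe set, 1421055_at, is annotated to Lats2 together with Xpo4 and entered no count. Its intensity was 94, above the background limit of 46.5. It cannot be assigned to either gene.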

How the results depend on the processing

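A total of 8 alternatives were run, and 2 of them moved a count by more than 1.5 times. When each gene took its lowest probe set, the count above background was 5 of 10 members, 3 of 8 core genes, 8 of 16 upstream regulators and 13 of 21 targets, where 39.7% of all named genes passed. The cause is that rule itself, which takes the dimmest probe set. Tead1 was then at -0.080, Lats1 at -1.73, Lats2 at -2.08 and Nf2 at -0.73 relative to the limit on the log2 scale. With probe sets marked a, s or x left out, 8 of 13 member probe sets remained above background, because fewer were counted, and 7 of 8 members, since Tead3 and Amotl2 had none left. Under the other alternatives 9 of the 10 members were above the limit, or 10 at the 90th percentile, where Tead4 passed. The limit itself ran from 25.5 at the 90th percentile to 84.75 at the 99th. Signals near it, such as Tead4 at 29 and the dimmer Tead1 probe set at 44, cannot be called either way. No paired analysis was possible because 1 array was analysed.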

Other observations

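The genes in this part were named after their values were seen. Ajuba, Limd1 and Wtip, LIM-domain proteins of cell junctions that bind LATS kinases, had 2638, 1175 and 1523 on their brightest probe sets. The striatins Strn, Strn3 and Strn4, scaffolds of a phosphatase complex that opposes the STK4 kinase, had 414, 2934 and 886 on theirs. The dimmest probe set of Strn had 23, below the limit. That of Strn3 had 73, and 4 background probe sets were as bright. Mob4, of the same complex, had 3 probe sets from 1171 to 1266, a span narrower than that of any of the 10 Hippo genes with several probe sets. Of the remaining targets, Ccdc80, a matrix protein, had 11107 and 1008, and Igfbp3, a binding protein of insulin-like growth factors, had 8641 and 3946. Gadd45a, a stress-response gene that is also a target of p53, had 2930. Ereg, an epidermal growth factor receptor ligand, had 78, and 3 background probe sets were as bright. It lay below the 99th percentile limit of 84.75. At that limit 18 of 21 targets passed, and 55.3% of all named genes.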
